A study of Arabidopsis thaliana with 12 samples.

Results

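The genes described here are 10 regulators and core cytochrome P450s of glucosinolate synthesis, chosen by their locus identifiers from 34218 genes in the count table. The aliphatic branch has 4 of them: the MYB transcription factor genes MYB28 (AT5G61420) and MYB29 (AT5G07690), and the P450 genes CYP79F1 (AT1G16410) and CYP83A1 (AT4G13770). The indolic branch has 6: the MYB genes MYB34 (AT5G60890), MYB51 (AT1G18570) and MYB122 (AT1G74080), and the P450 genes CYP79B2 (AT4G39950), CYP79B3 (AT2G22330) and CYP83B1 (AT4G31500). RNA sequencing covered 12 libraries of Arabidopsis thaliana, labelled as leaves of 14-day-old seedlings. Of the 4 groups, the salt-treated line carried pTaF5H1:TaF5H1, a wheat transgene behind its own promoter, and had been in 200 mM NaCl for 6 h, while the untreated line carried the same transgene and had been in nutrient solution for 6 h. Salt-treated wild type and untreated wild type were Col-0 seedlings handled in the same manner. Each group had 3 libraries, described by the submitters as biological replicates. Whether the line is 1 insertion event, and how many seedlings went into a library, is not given in the sources used here. The transgene itself was not analysed here.

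Glucosinolates are sulfur-rich defence compounds of the cabbage order that release toxic products when myrosinases cut them after wounding. Their core structure is built from amino acids, elongated methionine in the aliphatic branch and tryptophan in the indolic branch. A CYP79 enzyme turns the amino acid into an aldoxime, and a CYP83 enzyme oxidises the aldoxime before sulfur is brought in. CYP79F1 and CYP83A1 carry out these steps mainly for methionine derivatives, and CYP79B2, CYP79B3 and CYP83B1 for tryptophan. MYB28 and MYB29 activate the aliphatic genes, and MYB34, MYB51 and MYB122 the indolic genes.

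Library totals ranged from 17173618 to 21651124 counts, and 17038 genes with a mean FPKM (counted fragments scaled to exon length and library total) of at least 1 were tested. All 10 genes passed this filter. MYB122, with a mean of 1.18 FPKM, passed only through the salt-treated groups. A gene was called changed at an adjusted p under 0.05 in edgeR's quasi-likelihood test with Benjamini-Hochberg adjustment over all tested genes, written "edgeR adjusted p" from here on. Among the salt-treated libraries of the line, replicate 1 correlated over genes with its fellows at 0.931 and 0.935, while these correlated at 0.989 with each other. Beside the counts and calls that change most without it, the values without it are also given. The 5 leaf photosynthesis markers summed to 609 to 2809 FPKM in the salt-treated line and 12260 to 13497 FPKM in the untreated line, and to 5075 to 5354 FPKM in salt-treated and 19263 to 20773 FPKM in untreated wild type. The markers did not all move together. GLDP1 averaged 1158 ± 377 FPKM in the untreated line and 871 ± 15.8 FPKM in untreated wild type (SD), while the other leaf markers averaged lower in the untreated line. The 8 root markers summed to at most 0.41 FPKM in any library, and CASP1 and EXPA7 were at 0 throughout. The 3 vascular markers summed to 71.3 to 98.4 FPKM in the salt-treated line and 72.3 to 98.6 FPKM in the untreated line, against 113 to 144 FPKM in salt-treated and 135 to 162 FPKM in untreated wild type. Most of this sum is SUC2. For salt, SUC2 and XCP1 were not called in either genotype. APL was called higher under salt in the line (log2 fold change 1.03, edgeR adjusted p = 0.00054) and in wild type (0.48, edgeR adjusted p = 0.049). Fewer cells of a type and less RNA per cell cannot be told apart in such bulk samples, and the part of these marker shifts in the results below was not tested.

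Under salt, aliphatic genes of the line were mostly lower. The indolic genes other than MYB122 were lower or not called. Of the 4 aliphatic genes 3 fell and 0 rose, with a median log2 fold change of -2.59. Of the 6 indolic genes 3 fell and 1 rose, with a median of -0.51. Over all tested genes 64.8% were called in this comparison (33.5% fell and 31.4% rose), and the median was -0.05. In wild type 2 aliphatic genes fell and 0 rose (median -0.94), whereas 1 indolic gene fell and 3 rose (median 0.67), against 53.8% of all tested genes called, 26.7% falling and 27.1% rising (median -0.02). MYB122, which passed the expression filter only through the salt-treated groups, is the 1 indolic gene that rose in the line and 1 of the 3 in wild type. With a mean FPKM of at least 5 required, which leaves MYB122 untested, 0 indolic genes rose in the line. In wild type 1 then rose and 2 fell. The indolic median in wild type is the same with MYB122 at its lower bound. When replicate 1 of the salt-treated line was left out, 4 aliphatic genes fell in the line and 3 in wild type, and in wild type 1 rose. Of the indolic genes 4 then fell and 1 rose in the line, and 1 fell and 4 rose in wild type. Among all tested genes 36.5% then fell and 34.7% rose in the line, and 31% fell and 32.4% rose in wild type.

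**Figure D1:**
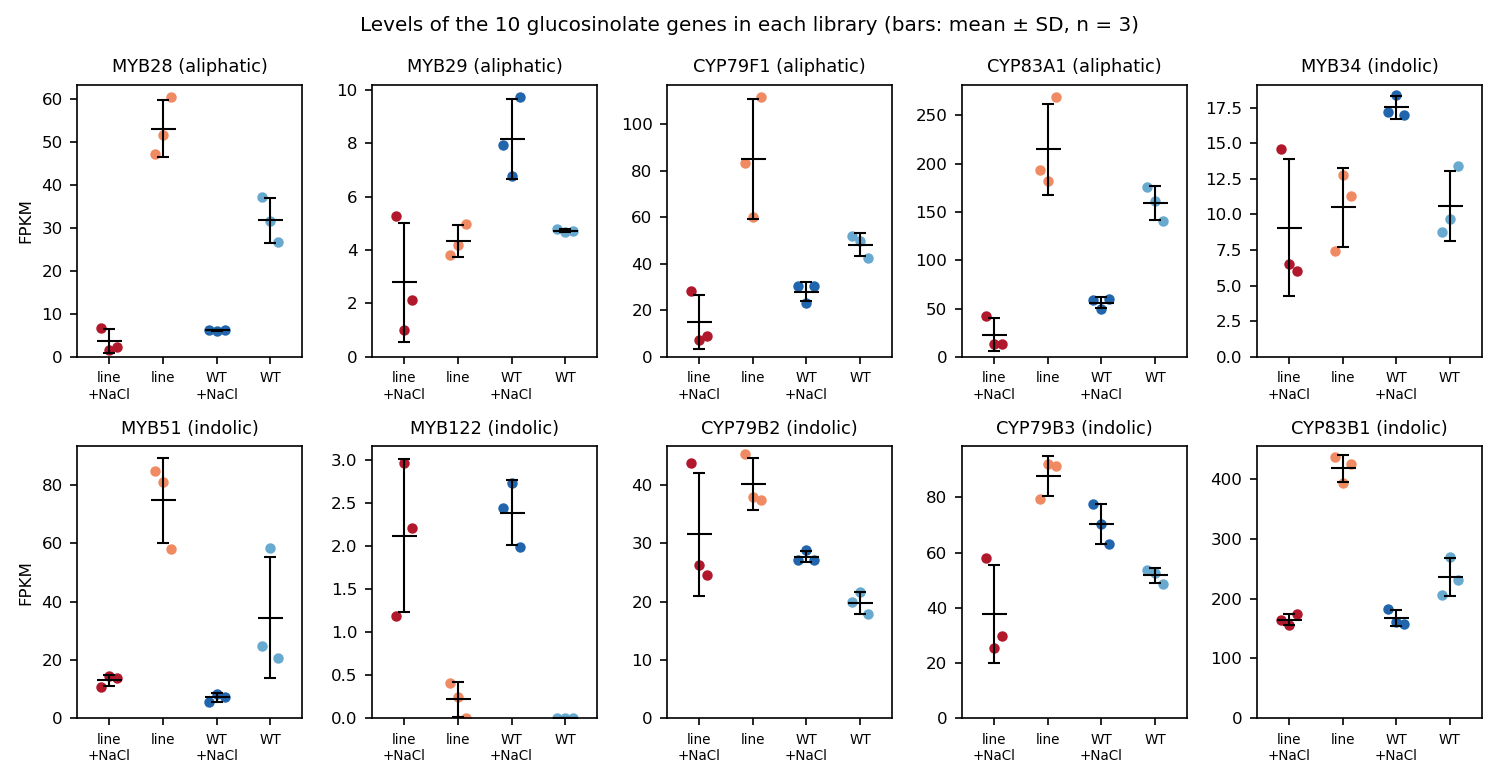
FPKM of each of the 10 genes in the 12 libraries, 1 panel per gene, with points for libraries and black bars for the mean ± SD of 3 libraries. MYB28, CYP79F1 and CYP83A1 are lower under NaCl in both genotypes, MYB122 is near 0 without NaCl, and replicate 1 of the salt-treated line (leftmost red point) lies above its fellows in all 4 aliphatic panels.

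Among the aliphatic regulators, MYB28 carried the larger salt response. MYB28 (TAIR10 chromosome 5, the build of all gene positions here, 24689069 to 24691187, minus strand) had 6.80, 1.66 and 2.30 FPKM in the salt-treated line, against 47.3, 51.7 and 60.5 FPKM in the untreated line. In wild type it had 6.24, 6.02 and 6.33 FPKM under salt, against 37.2, 31.5 and 26.7 FPKM untreated. Every salt-treated library lay below every untreated library of its genotype. MYB28 fell 12.3-fold in the line (log2 fold change -3.62 ± 0.43 SE, edgeR adjusted p = 2.1e-05) and 4.47-fold in wild type (-2.16 ± 0.40, edgeR adjusted p = 0.00077). Leaving out replicate 1 of the salt-treated line, the log2 fold change in the line was -4.49 ± 0.20.

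MYB29 (chromosome 5, 2446669 to 2448584, plus strand), the close relative of MYB28, did not follow it. It had 5.28, 0.99 and 2.12 FPKM in the salt-treated line, against 3.83, 4.18 and 4.99 FPKM in the untreated line. Wild-type libraries had 7.94, 6.78 and 9.74 FPKM under salt, against 4.78, 4.67 and 4.72 FPKM untreated. The groups of the line overlapped through replicate 1 of the salt-treated line, and in wild type all salt-treated libraries were the higher ones. The log2 fold change was -0.37 ± 0.44 in the line (edgeR adjusted p = 0.48) and 0.98 ± 0.42 in wild type (edgeR adjusted p = 0.069). Without that replicate MYB29 passed the test in opposite directions, at -1.23 ± 0.27 in the line (edgeR adjusted p = 0.0013) and 1.01 ± 0.21 in wild type (edgeR adjusted p = 0.0011). Leaving out replicate 2 of the salt-treated line instead, MYB29 was also called higher in wild type (edgeR adjusted p = 0.012).

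CYP79F1 (chromosome 1, 5608682 to 5612064, plus strand) makes the aldoximes of chain-elongated methionine. It had 28.3, 7.41 and 8.82 FPKM in the salt-treated line, against 83.5, 60.1 and 112 FPKM in the untreated line. Among wild-type libraries it had 30.6, 23.2 and 30.4 FPKM under salt, against 52.2, 49.9 and 42.6 FPKM untreated. Salt-treated libraries were the lower ones in both genotypes, with no overlap. CYP79F1 fell 4.72-fold in the line (-2.24 ± 0.45, edgeR adjusted p = 0.001), and its log2 fold change in wild type was -0.58 ± 0.43 (edgeR adjusted p = 0.27). Without replicate 1 of the salt-treated line these values were -3.13 ± 0.25 in the line and -0.56 ± 0.19 in wild type, with the wild-type value past the test (edgeR adjusted p = 0.022). CYP79F1 shares a run of 100 identical transcript bases with its neighbour CYP79F2, so reads could have been divided between them. The exon length in the table, 3272 bases, is also longer than its annotated transcripts of 1852 and 2743 bases, which lowers its FPKM equally in all groups.

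CYP83A1 (chromosome 4, 7990429 to 7992429, minus strand) takes the next step of the aliphatic branch. It had 42.5, 13.1 and 13.1 FPKM in the salt-treated line, against 193, 183 and 269 FPKM in the untreated line. Levels in wild type were 58.7, 49.95 and 59.99 FPKM under salt, against 176, 162 and 141 FPKM untreated. The groups did not overlap in either genotype. CYP83A1 fell 7.73-fold in the line (-2.95 ± 0.42, edgeR adjusted p = 9e-05) and 2.47-fold in wild type (-1.31 ± 0.40, edgeR adjusted p = 0.015). Without replicate 1 of the salt-treated line the value in the line was -3.77 ± 0.19, and without replicate 2 of salt-treated wild type the call in wild type was lost (-1.21, edgeR adjusted p = 0.058).

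CYP83B1 (chromosome 4, 15273410 to 15275404, minus strand) is the indolic counterpart of CYP83A1 and the highest of the 10 genes per exon length in each group. It had 165, 155 and 175 FPKM in the salt-treated line, against 436, 393 and 426 FPKM in the untreated line. In wild type it had 183, 161 and 158 FPKM under salt, against 207, 269 and 231 FPKM untreated. Salt-treated libraries were lower in both genotypes without overlap, and those of the line and of wild type overlapped. CYP83B1 fell 2.12-fold in the line (-1.08 ± 0.14, edgeR adjusted p = 5.2e-05), and its log2 fold change in wild type was -0.29 ± 0.14 (edgeR adjusted p = 0.1). In wild type 6 of 21 alternative analyses called it lower, among them DESeq2 (-0.30, adjusted p = 0.035).

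The stretches of 250 bases before the start of the CYP83 pair, the aliphatic and the indolic gene of 1 enzyme step, are shown to set the branches side by side. They are read from RefSeq assembly TAIR10.1 (CYP83A1 chr4:7992430-7992679, minus strand; CYP83B1 chr4:15275405-15275654, minus strand). Capitals mark matches to the G-box CACGTG, which MYC factors can bind, and to the AC elements with the form ACCTAAC, the form ACCTACC, the form ACCAACC or the form ACCAAAC, which MYB factors can bind, both searched on both strands.
CYP83A1: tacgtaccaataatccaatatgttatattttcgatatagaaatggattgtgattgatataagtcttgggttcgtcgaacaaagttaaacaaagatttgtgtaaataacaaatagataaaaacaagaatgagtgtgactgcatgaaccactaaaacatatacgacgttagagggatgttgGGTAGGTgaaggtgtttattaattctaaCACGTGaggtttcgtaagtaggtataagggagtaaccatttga
CYP83B1: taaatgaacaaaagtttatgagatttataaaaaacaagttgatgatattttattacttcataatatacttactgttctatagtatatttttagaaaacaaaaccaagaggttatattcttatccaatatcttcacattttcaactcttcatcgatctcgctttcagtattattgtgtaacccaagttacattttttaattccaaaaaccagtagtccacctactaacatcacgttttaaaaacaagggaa
The CYP83A1 stretch holds an AC element on the reverse strand 71 bases and a G-box 43 bases before the start. The CYP83B1 stretch holds neither, but CYP83B1 has an AC element 32 bases after its start, beyond the stretch printed. In windows from 250 bases before to 50 bases after the start of 27443 protein-coding genes, 7.678% had this G-box and 16.28% an AC element, and by that window both CYP83A1 and CYP83B1 have an AC element. A match is a description of letters and does not show binding.

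CYP79B2 and CYP79B3, duplicated genes for the enzymes that turn tryptophan into its aldoxime, had smaller log2 fold changes under salt than CYP79F1 in the line. CYP79B2 (chromosome 4, 18525042 to 18527602, plus strand) had 43.7, 26.4 and 24.5 FPKM in the salt-treated line, against 45.3, 37.9 and 37.4 FPKM in the untreated line. Wild-type libraries had 27.1, 28.9 and 27.2 FPKM under salt, against 19.98, 21.6 and 17.8 FPKM untreated. The groups of the line overlapped only through replicate 1 of the salt-treated line, and in wild type the salt-treated libraries were all higher. The log2 fold change of CYP79B2 was -0.08 ± 0.21 in the line (edgeR adjusted p = 0.75), or -0.39 ± 0.12 without that replicate (edgeR adjusted p = 0.011). In wild type CYP79B2 rose 1.61-fold (0.69 ± 0.21, edgeR adjusted p = 0.015), a call that scaling to library totals alone ended (0.48, edgeR adjusted p = 0.05).

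CYP79B3 (chromosome 2, 9488413 to 9491404, plus strand) had 58.1, 25.3 and 29.6 FPKM in the salt-treated line, against 79.4, 92.2 and 91.4 FPKM in the untreated line. Among wild-type libraries it had 77.6, 70.5 and 63.1 FPKM under salt, against 53.8, 52.8 and 48.6 FPKM untreated. Salt-treated libraries were all the lower ones in the line and all the higher ones in wild type. CYP79B3 fell 1.92-fold in the line (-0.94 ± 0.27, edgeR adjusted p = 0.0085), with a log2 fold change of -1.41 ± 0.13 without replicate 1 of the salt-treated line (edgeR adjusted p = 7.6e-07). In wild type its log2 fold change was 0.65 ± 0.27 (edgeR adjusted p = 0.058), which passed the test without that library (0.67 ± 0.11, edgeR adjusted p = 0.00019) or without replicate 2 of the same group (edgeR adjusted p = 0.029). In a fit of the line's libraries alone the call in the line was lost (-0.92, edgeR adjusted p = 0.05).

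The 250 bases before the starts of this pair are shown because they share a run of 22 bases, in capitals, that was found in 2 of the 27443 windows (RefSeq assembly TAIR10.1, CYP79B2 chr4:18524792-18525041, plus strand; CYP79B3 chr2:9488163-9488412, plus strand).
CYP79B2: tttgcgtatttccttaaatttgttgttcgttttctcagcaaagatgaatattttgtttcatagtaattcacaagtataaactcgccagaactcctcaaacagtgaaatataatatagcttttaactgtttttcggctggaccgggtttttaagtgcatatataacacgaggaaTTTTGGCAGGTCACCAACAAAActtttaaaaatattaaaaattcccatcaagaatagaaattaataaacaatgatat
CYP79B3: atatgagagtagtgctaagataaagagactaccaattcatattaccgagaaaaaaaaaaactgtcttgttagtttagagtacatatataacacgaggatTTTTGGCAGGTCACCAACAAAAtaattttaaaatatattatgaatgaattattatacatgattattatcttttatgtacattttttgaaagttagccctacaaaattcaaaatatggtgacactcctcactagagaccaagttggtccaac
The run starts 77 bases before the start of CYP79B2 and 151 bases before that of CYP79B3. Neither stretch holds the G-box or AC elements searched here.

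The indolic regulators did not all move together under salt. MYB51 (chromosome 1, 6389399 to 6391386, plus strand), a main activator of the indolic genes in leaves, had 10.8, 14.5 and 13.9 FPKM in the salt-treated line, against 84.9, 81.2 and 58.2 FPKM in the untreated line. Levels in wild type were 5.62, 8.45 and 7.44 FPKM under salt, against 24.8, 58.3 and 20.6 FPKM untreated. Salt-treated libraries lay below all untreated ones in both genotypes, and replicate 2 of untreated wild type lay far above its fellows. MYB51 fell 4.79-fold in the line (-2.26 ± 0.34, edgeR adjusted p = 0.00014) and 4.18-fold in wild type (-2.06 ± 0.34, edgeR adjusted p = 0.00037).

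MYB34 (chromosome 5, 24494291 to 24496371, plus strand), which also controls tryptophan synthesis genes, had 14.6, 6.55 and 6.02 FPKM in the salt-treated line, against 7.41, 12.8 and 11.3 FPKM in the untreated line. In wild type it had 17.2, 18.4 and 16.96 FPKM under salt, against 8.74, 9.65 and 13.4 FPKM untreated. The groups of the line overlapped, with replicate 1 of the salt-treated line the highest of the 6, and those of wild type did not. MYB34 rose 1.9-fold in wild type (0.92 ± 0.33, edgeR adjusted p = 0.032), a call lost in 9 of 21 alternative analyses, among them scaling to library totals and leaving out replicate 1 or 2 of either wild-type group. In the line its log2 fold change was 0.06 ± 0.33 (edgeR adjusted p = 0.88), or -0.47 ± 0.22 without replicate 1 of the salt-treated line (edgeR adjusted p = 0.075).

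MYB122 (chromosome 1, 27855578 to 27857598, plus strand), a minor activator of the branch, was the lowest of the 10 genes. It had 1.19, 2.96 and 2.21 FPKM in the salt-treated line, against 0.41, 0.25 and 0 FPKM in the untreated line. Wild-type libraries had 2.44, 2.73 and 1.99 FPKM under salt, against 0 FPKM in each untreated library. These rest on 195 counts in the salt-treated and 21 in the untreated line, and on 227 counts in salt-treated and 0 in untreated wild type. MYB122 rose 11.2-fold in the line (3.49 ± 0.69, edgeR adjusted p = 0.0015) and was at least 84.3-fold higher under salt in wild type, taking 3 counts over the untreated group as the floor (edgeR adjusted p = 0.00016). It passed the expression filter only through the salt-treated groups in which it is higher. With a mean FPKM of at least 5 required, it was not tested.

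Under salt, MYB29, CYP83A1, MYB34 and CYP79B3 were lower in the line than in wild type. Of the 4 aliphatic genes 2 were called lower and 0 higher (median -1.11), and of the 6 indolic genes 2 lower and 0 higher (median -0.13), where 34.6% of all tested genes were called, 19% lower and 15.6% higher (median -0.03). MYB29 averaged 2.80 ± 2.22 FPKM in the salt-treated line and 8.15 ± 1.49 FPKM in salt-treated wild type (SD, n = 3 each), a log2 fold change of -1.56 ± 0.44 (edgeR adjusted p = 0.019). CYP83A1 averaged 22.9 ± 16.9 FPKM in the salt-treated line and 56.2 ± 5.45 FPKM in salt-treated wild type (-1.30 ± 0.40, edgeR adjusted p = 0.027). The indolic genes called lower were MYB34 (-0.97 ± 0.33, edgeR adjusted p = 0.041) and CYP79B3 (-0.92 ± 0.27, edgeR adjusted p = 0.022). For these 4 genes the 3 libraries of each group did not overlap, a description given without the share of all tested genes that did not overlap.

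MYB28 (-0.81 ± 0.40, edgeR adjusted p = 0.14) and CYP79F1 (-0.93 ± 0.43, edgeR adjusted p = 0.12) overlapped between the genotypes under salt through replicate 1 of the salt-treated line. MYB51 ran the other way, with all 3 libraries of the salt-treated line above those of salt-treated wild type (0.83 ± 0.34, edgeR adjusted p = 0.073). CYP83B1 averaged 165 ± 9.89 FPKM in the salt-treated line and 167 ± 13.7 FPKM in salt-treated wild type (-0.05 ± 0.14, edgeR adjusted p = 0.81). By a normal approximation, which is narrower than the test would give, the 95% interval of its log2 difference ran from -0.33 to 0.23. CYP79B2 (0.17 ± 0.21, edgeR adjusted p = 0.56) and MYB122 (-0.20 ± 0.56, edgeR adjusted p = 0.81) overlapped as well. Leaving out replicate 1 of the salt-treated line, all 4 aliphatic genes were called lower, from -1.70 for MYB28 to -2.45 for MYB29, and MYB51 was called higher (0.94 ± 0.36, edgeR adjusted p = 0.04), where 30.3% of all tested genes were then lower and 23.7% higher. The lower calls were lost in 3 of 21 alternatives for MYB29, 6 for CYP83A1, 5 for CYP79B3 and 10 for MYB34. Leaving out replicate 3 of the salt-treated line ended all 4 (edgeR adjusted p = 0.076 to 0.14), replicate 2 of it ended all but MYB29, and each library of salt-treated wild type ended at least 1. In a fit of the salt-treated libraries alone none of the 4 lower calls remained (edgeR adjusted p = 0.093 to 0.099), and MYB51 was called higher (0.87, edgeR adjusted p = 0.043).

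Without salt, the indolic P450 genes CYP79B2 and CYP83B1 were higher in the line than in wild type. Of the 6 indolic genes 2 were called higher and 0 lower (median 0.84), and of the 4 aliphatic genes 0 were called in either direction by edgeR (median 0.50), where 13.9% of all tested genes were called, 7.34% higher and 6.58% lower (median 0.01). CYP79B2 averaged 40.2 ± 4.43 FPKM in the untreated line and 19.8 ± 1.87 FPKM in untreated wild type (SD, n = 3 each), 1.91-fold higher (0.93 ± 0.21, edgeR adjusted p = 0.013). CYP83B1 averaged 418 ± 22.6 FPKM in the untreated line and 236 ± 31.5 FPKM in untreated wild type, 1.67-fold higher (0.74 ± 0.14, edgeR adjusted p = 0.0065). The libraries of the genotypes did not overlap for either gene, a description given without the share of all tested genes that did not overlap. The CYP79B2 call was lost without replicate 1 of the untreated line (0.83, edgeR adjusted p = 0.057) or replicate 3 of untreated wild type (0.87, edgeR adjusted p = 0.06). The CYP83B1 call was kept in all 21 alternative analyses.

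CYP79B3 (0.67 ± 0.27, edgeR adjusted p = 0.11), MYB28 (0.65 ± 0.38, edgeR adjusted p = 0.27) and CYP79F1 (0.73 ± 0.43, edgeR adjusted p = 0.28) also stood higher in each untreated library of the line than in any of wild type, without passing the test. MYB51 had a log2 fold change of 1.03 ± 0.33 (edgeR adjusted p = 0.058), or 1.62 ± 0.22 without replicate 2 of untreated wild type (edgeR adjusted p = 0.0033), and MYB122 was at least 6.38-fold higher in the untreated line (edgeR adjusted p = 0.056). Values for CYP83A1 (0.34 ± 0.39), MYB29 (-0.21 ± 0.43) and MYB34 (-0.11 ± 0.33) lay within 1 SE of 0. Of these, CYP83A1 was also higher in each untreated library of the line than in any of wild type (edgeR adjusted p = 0.59). The share of all tested genes separated in this way was not computed, so how unusual such separation is remains unknown. Of the aliphatic genes 2 and of the indolic genes 5 were called higher without replicate 1 of the salt-treated line, a library that enters this comparison only through the shared estimate of the spread and the scaling, where 15% of all tested genes were then higher. By edgeR, 0 of the 4 aliphatic genes had an unadjusted p under 0.05, and DESeq2 called 0 of them.

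The interaction, the log2 salt response in the line less the one in wild type, was below 0 for the 9 genes other than MYB122, against a median of -0.07 over all tested genes. For MYB122, with 0 counts in untreated wild type, the size of the interaction is not given. It shares its libraries with the comparisons above and adds the test of the difference. By edgeR 0 of 4 aliphatic genes (median -1.55; 4 with an unadjusted p under 0.05) and 2 of 6 indolic genes (median -0.82) were called lower, and 0 of the 10 higher, where 5.88% of all tested genes were called, 2.95% lower and 2.92% higher. CYP79B3 (-1.59 ± 0.38, edgeR adjusted p = 0.036) and CYP83B1 (-0.79 ± 0.20, edgeR adjusted p = 0.044) were the genes called. These calls were lost in 11 of 20 alternative analyses for CYP79B3 and in 14 for CYP83B1, and for each gene on leaving out any 1 library but replicate 1 of the salt-treated line. The adjusted p over the alternatives (edgeR, DESeq2 and limma) ranged from 3.2e-06 to 0.092 for CYP79B3 and from 0.0012 to 0.12 for CYP83B1. The aliphatic values were MYB28 -1.46 ± 0.55, MYB29 -1.35 ± 0.61, CYP79F1 -1.66 ± 0.61 and CYP83A1 -1.64 ± 0.56, with edgeR adjusted p between 0.092 and 0.17. CYP79B2 had -0.77 ± 0.29, MYB34 -0.86 ± 0.46 and MYB51 -0.19 ± 0.47, none of them called. Without replicate 1 of the salt-treated line, 4 aliphatic genes (-2.24 to -2.57) and 5 indolic genes were called lower, along with 6270 genes in all called in either direction (23% of all tested genes lower), against 1001 with every library. DESeq2 called 1 aliphatic gene, CYP83A1 (-1.60, adjusted p = 0.033).

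**Figure D2:**
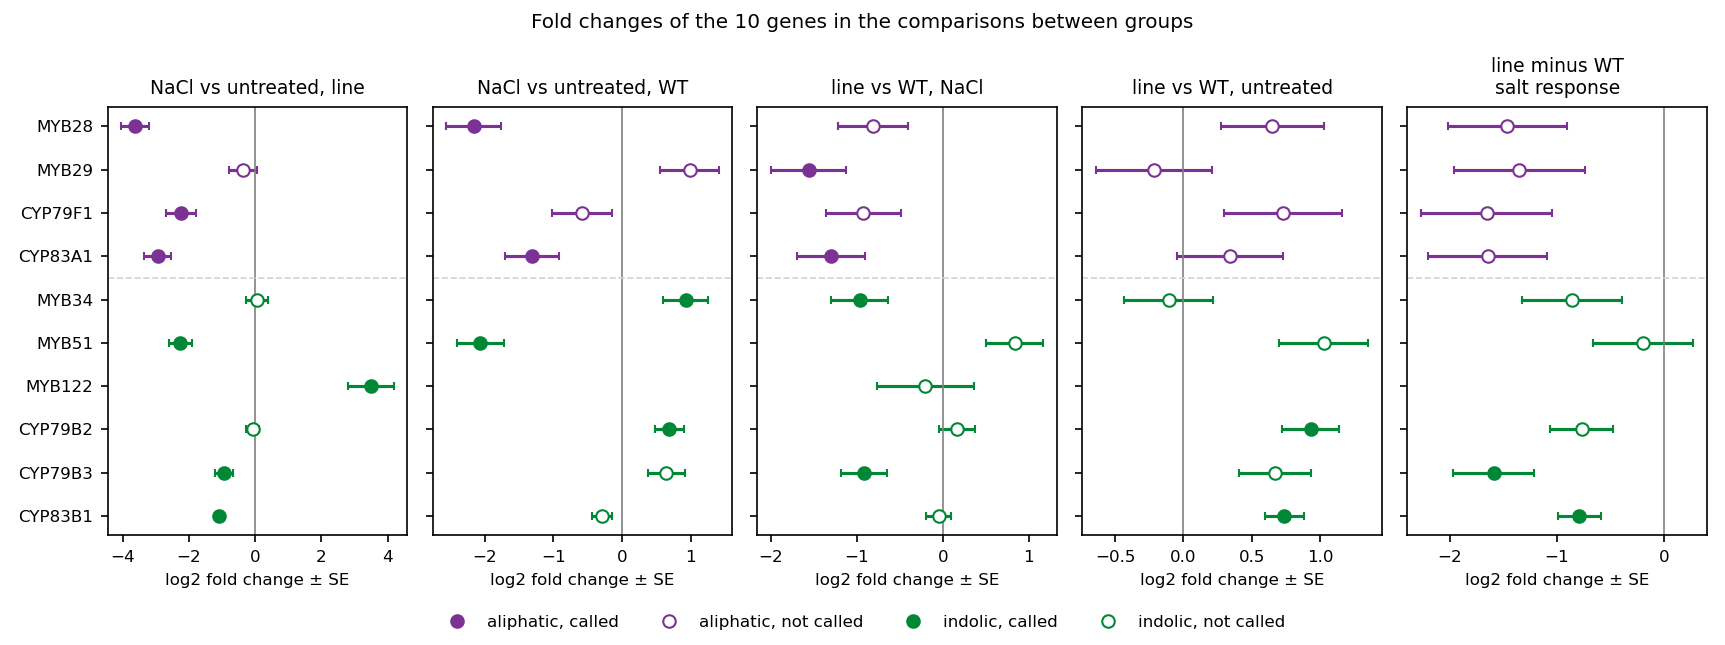
Log2 fold changes ± SE of the 10 genes in the 5 comparisons (edgeR, all 12 libraries, 1 panel each with its own scale), aliphatic genes in purple above the dashed line and indolic genes in green below it; filled points passed an adjusted p of 0.05. MYB122 is left out where untreated wild type had 0 counts. In the right-hand panel all plotted points lie below 0, and CYP79B3 and CYP83B1 are filled.

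Set against each other within a library, the P450s of the aliphatic branch lost ground to those of the indolic branch under salt. The ratio of CYP83A1 to CYP83B1 was 0.258, 0.0846 and 0.0747 in the salt-treated line, against 0.443, 0.465 and 0.632 in the untreated line. In wild type it was 0.320, 0.311 and 0.379 under salt, against 0.851, 0.601 and 0.609 untreated. On the log2 scale the means were -3.09 ± 0.99 in the salt-treated and -0.98 ± 0.28 in the untreated line, and -1.58 ± 0.15 in salt-treated and -0.56 ± 0.28 in untreated wild type (SD, n = 3 each). Salt-treated libraries were lower than untreated ones without overlap in both genotypes, and those of the line were lower than those of wild type under salt.

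At the CYP79 step, the ratio of CYP79F1 to the sum of CYP79B2 and CYP79B3 was 0.278, 0.143 and 0.163 in the salt-treated line, against 0.670, 0.462 and 0.867 in the untreated line. In wild type it was 0.292, 0.234 and 0.337 under salt, against 0.707, 0.671 and 0.641 untreated. Salt again separated the groups of each genotype. The line and wild type overlapped, both under salt (log2 mean -2.42 ± 0.50 in the line and -1.81 ± 0.27 in wild type) and untreated (-0.63 ± 0.46 in the line and -0.57 ± 0.07 in wild type). Under salt the overlap came only through replicate 1 of the salt-treated line, without which the log2 mean of that group was -2.71 ± 0.13. The level of the CYP79 ratio depends on the exon length used for CYP79F1, 3272 bases against transcripts of 1852 and 2743. A shorter length would raise it equally in all groups, so whether it lies below 1 is not read here. No test was made of the ratios at either step. Both numerator genes also fell in their own library-scaled levels in the line, and the summed leaf markers given above moved in the same direction.

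**Figure D3:**
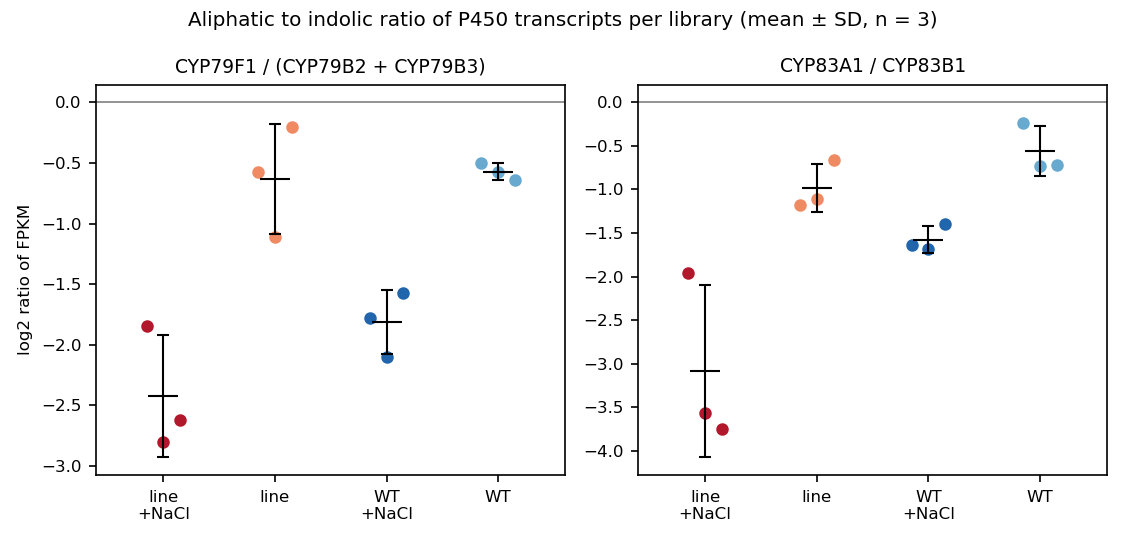
Log2 ratio of FPKM of aliphatic to indolic P450 genes in each library at the CYP79 step (left) and the CYP83 step (right), with bars for the mean ± SD of 3 libraries per group. Every point lies below 0 by the deposited exon lengths. At the CYP79 step this position depends on the long exon length used for CYP79F1 (3272 bases, transcripts of 1852 and 2743). The NaCl-treated groups lie below the untreated groups of the same genotype in both panels, which does not depend on it.

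The order of the mean FPKM across groups differed between genes and did not follow the branches. CYP83A1, CYP79F1, MYB28 and the indolic CYP83B1 were highest in the untreated line, then untreated wild type, salt-treated wild type and the salt-treated line. By the edgeR test, neighbours in this order that were not called apart were the untreated genotypes for the 3 aliphatic genes, the salt-treated genotypes for MYB28, CYP79F1 and CYP83B1, and the wild-type groups for CYP79F1 and CYP83B1. MYB51 kept the untreated line first and untreated wild type next, but salt-treated wild type was below the salt-treated line. CYP79B3 also peaked in the untreated line but was lowest in the salt-treated line, with salt-treated wild type above untreated wild type. CYP79B2 was highest in the untreated line, followed by the salt-treated line, salt-treated wild type and untreated wild type, and its salt-treated groups overlapped. MYB29 and MYB34 peaked in salt-treated wild type, at 8.15 ± 1.49 and 17.5 ± 0.789 FPKM, and the other 3 groups of each averaged 2.80 to 4.72 and 9.06 to 10.6 FPKM.

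In likeness of pattern, measured as the root mean square difference of log2 library-scaled counts after centring each gene over the 12 libraries, the closest pair among the 10 was CYP79F1 and CYP83A1 (0.41), then MYB28 and CYP83A1 (0.45). MYB29 and MYB34, from different branches, came next (0.48), and CYP79B2 and CYP79B3 stood at 0.50. The measure is smaller between genes that vary little, and a median over tested genes was taken only for CYP83A1 and CYP83B1. Whether 0.48 or 0.50 is unusual for these genes is therefore not known. MYB28 and MYB29 were far apart (1.64), and so were MYB34 and MYB51 (1.63). The tested genes outside the set closest to CYP83A1 were ALDH11A3 (AT2G24270, a glyceraldehyde-3-phosphate dehydrogenase, 0.17), PER42 (AT4G21960, a peroxidase, 0.18), CPN60B4 (AT1G26230, a chaperonin subunit, 0.20), AT1G21440 (0.20) and IMDH3 (AT5G14200, 0.20), where the median over tested genes was 1.36. IMDH3, also called IPMDH1, is the dehydrogenase of methionine chain elongation. Those closest to CYP83B1 were DTX29 (AT3G26590, a transporter of the DETOXIFICATION family, 0.14), PCMP-E70 (AT1G09190, 0.15), SVP (AT2G22540, a floral repressor, 0.16), AT3G51075 (0.17) and AT3G28690 (0.17), where the median was 0.67.

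Of 74 other glucosinolate-related genes listed for comparison, 67 were tested. Under salt 35 fell and 12 rose in the line, where 33.5% of all tested genes fell and 31.4% rose, and 15 fell and 19 rose in wild type, where 26.7% fell and 27.1% rose. Under salt 20 were lower and 7 higher in the line than in wild type (19% and 15.6% of all tested genes), untreated 2 were lower and 10 higher (6.58% and 7.34%), and the interaction was called negative for 11 and positive for 1 (2.95% and 2.92%). The same shares of all tested genes apply to the lists below. Without replicate 1 of the salt-treated line, 42 fell and 16 rose under salt in the line (36.5% and 34.7% of all tested genes), and 26 fell and 20 rose in wild type (31% and 32.4%). Between genotypes, 42 were then lower and 12 higher in the line under salt (30.3% and 23.7%), 6 lower and 27 higher untreated (15% and 15%), and the interaction was called negative for 42 and positive for 3 (23% and 13.8%).

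The other aliphatic genes mostly fell in the line. Of 22 tested 16 fell and 4 rose there (median -1.57), and 5 fell and 3 rose in wild type (median -0.48, 14 fell without replicate 1 of the salt-treated line). IPMI-SSU3, an isopropylmalate isomerase subunit of methionine chain elongation, averaged 2.38 ± 1.46 FPKM in the salt-treated and 88.7 ± 14.8 FPKM in the untreated line, and 3.79 ± 0.426 FPKM in salt-treated and 47.5 ± 4.18 FPKM in untreated wild type. Its log2 fold change was -4.96 ± 0.34 in the line (edgeR adjusted p = 3.9e-07) and -3.45 ± 0.32 in wild type (edgeR adjusted p = 4.2e-06). FMOGS-OX4, an S-oxygenase of the side chain, moved the other way, up by 4.69 ± 0.33 in the line (edgeR adjusted p = 4.6e-07) and 5.07 ± 0.34 in wild type (edgeR adjusted p = 3.5e-07). Between genotypes under salt 5 of the 22 were lower in the line, led by BCAT3 (-0.78 ± 0.22, edgeR adjusted p = 0.019) and IPMI-SSU2 (-1.39 ± 0.40, edgeR adjusted p = 0.022). Untreated, 1 was called higher, the sulfotransferase gene SOT17 (1.04 ± 0.18, edgeR adjusted p = 0.004). Of the 22, without replicate 1 of the salt-treated line, 18 were lower and 3 higher in the line under salt, and 10 were higher untreated.

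Among 8 other indolic genes 5 fell and 1 rose in the line (median -0.98), and 4 fell and 4 rose in wild type (median -0.25). CYP81F2, which hydroxylates the indole ring, averaged 0.747 ± 0.278 FPKM in the salt-treated and 31.6 ± 3.67 FPKM in the untreated line, and 0.61 ± 0.305 FPKM in salt-treated and 29.2 ± 15.2 FPKM in untreated wild type. Its log2 fold change was -5.15 ± 0.43 in the line and -5.38 ± 0.44 in wild type (edgeR adjusted p = 1.7e-06 in each). The methyltransferase gene IGMT1 had log2 fold changes of -3.38 ± 0.35 in the line (edgeR adjusted p = 7.2e-06) and -3.09 ± 0.34 in wild type (edgeR adjusted p = 1.7e-05). The glutathione transferase genes GSTF9 and GSTF10 were lower in the line than in wild type under salt (-0.70 ± 0.22 and -0.65 ± 0.20, edgeR adjusted p = 0.031 and 0.026), and GSTF9 was higher without salt (0.83 ± 0.22, edgeR adjusted p = 0.029). GSTF9 and GSTF10 lie side by side on chromosome 2, and reads may be divided between them.

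**Figure D4:**
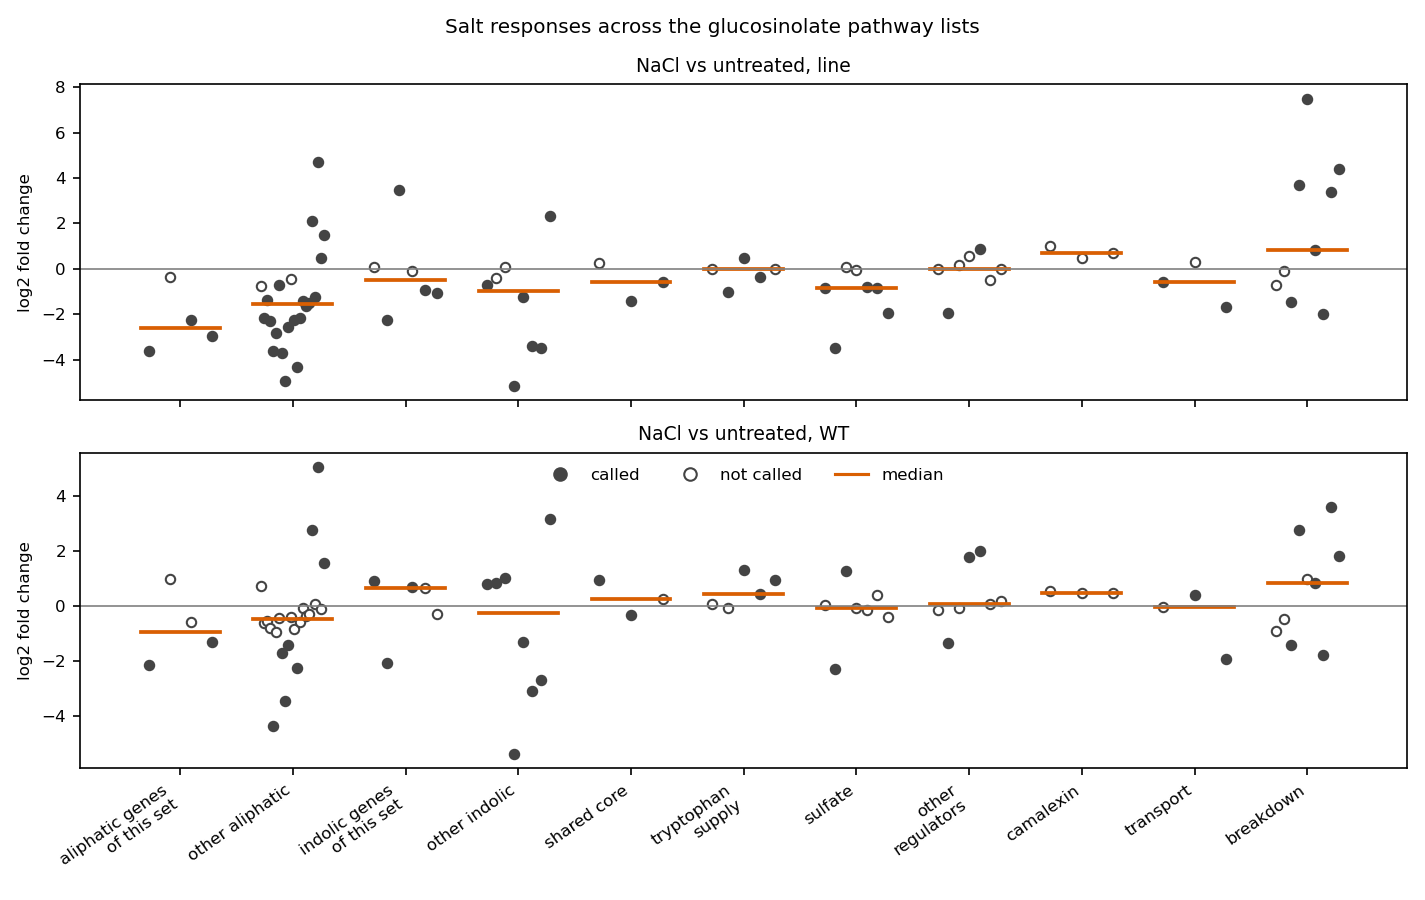
Log2 fold changes under NaCl of tested genes in the glucosinolate lists, in the line (upper) and in wild type (lower), 1 point per gene, filled where called at an edgeR adjusted p under 0.05, with list medians in orange. Of the other aliphatic genes 16 of 22 are filled below 0 in the line and 5 in wild type; MYB122 is not drawn in wild type, where the untreated group had 0 counts.

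The C-S lyase gene SUR1, whose product follows the CYP83 step, fell in the line (-1.40 ± 0.13, edgeR adjusted p = 2.7e-06) and in wild type (-0.33 ± 0.12, edgeR adjusted p = 0.04), and its interaction was -1.07 ± 0.17 (edgeR adjusted p = 0.011). SUR1 was lower in the line than in wild type under salt (-0.44 ± 0.12, edgeR adjusted p = 0.021) and higher without salt (0.64 ± 0.12, edgeR adjusted p = 0.0067). The glucosyltransferase gene UGT74B1 fell in the line (-0.58 ± 0.17, edgeR adjusted p = 0.011), and GGP1, which processes the glutathione conjugate, rose in wild type (0.94 ± 0.19, edgeR adjusted p = 0.0013). Of 5 tryptophan synthesis genes 3 rose in wild type, led by TSA1 (1.33 ± 0.18, edgeR adjusted p = 8.5e-05) and TSB2 (0.94 ± 0.15, edgeR adjusted p = 0.00021), while in the line 1 rose and 2 fell, ASB1 (-1.03 ± 0.17, edgeR adjusted p = 0.00028) and TSB1 (-0.38 ± 0.13, edgeR adjusted p = 0.02). TSB1 was also lower in the line than in wild type under salt (-0.63 ± 0.13, edgeR adjusted p = 0.0056), and TSB2 and TSA1 were higher in the untreated line (0.79 ± 0.15 and 0.81 ± 0.18, edgeR adjusted p = 0.005 and 0.012). Of 7 sulfate genes 5 fell in the line, led by APS3 (-3.51 ± 0.34, edgeR adjusted p = 5.3e-06) and APK2 (-1.95 ± 0.31, edgeR adjusted p = 0.0002). In wild type 1 fell, APS3 (-2.27 ± 0.32, edgeR adjusted p = 0.00012), and 1 rose, APR1 (1.26 ± 0.23, edgeR adjusted p = 0.00064). Under salt 4 were lower in the line than in wild type, led by APS1 (-0.78 ± 0.19, edgeR adjusted p = 0.011) and APS3 (-1.13 ± 0.32, edgeR adjusted p = 0.021). Untreated 0 were called by edgeR (2 with an unadjusted p under 0.05), APR1 having the smallest adjusted p (0.62, edgeR adjusted p = 0.089). All 7 sulfate genes, without replicate 1 of the salt-treated line, were lower in the line under salt, and 3 were higher untreated, APR1 among them (0.63 ± 0.15, edgeR adjusted p = 0.0089). The 3 core genes were then all lower in the line under salt, and 2 were higher untreated.

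Of 7 other regulators 1 rose and 1 fell in the line, and 2 rose and 1 fell in wild type. MYC4, a bHLH partner of the MYB factors, fell in the line (-1.95 ± 0.26, edgeR adjusted p = 4.9e-05) and in wild type (-1.33 ± 0.25, edgeR adjusted p = 0.00097). SDI2, a repressor of glucosinolate synthesis under sulfur shortage, rose in the line (0.89 ± 0.17, edgeR adjusted p = 0.00072) and in wild type (2.01 ± 0.18, edgeR adjusted p = 2.8e-06), and was higher in the untreated line than in untreated wild type (1.31 ± 0.17, edgeR adjusted p = 0.00092). The calmodulin-binding gene IQD1 was lower in the line than in wild type under salt (-1.10 ± 0.27, edgeR adjusted p = 0.013), the 1 regulator called lower there, where 3 were lower and 1 higher without replicate 1 of the salt-treated line. Of the transport genes PEN3 fell in both genotypes (-1.68 ± 0.30 in the line, -1.92 ± 0.30 in wild type, edgeR adjusted p = 0.00047 and 0.00025), and the glucosinolate importer gene GTR1 was lower in the line than in wild type under salt (-0.88 ± 0.22, edgeR adjusted p = 0.012). Its relative GTR2 was higher in the line under salt (0.34 ± 0.12, edgeR adjusted p = 0.049) and untreated (0.45 ± 0.12, edgeR adjusted p = 0.029).

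All 3 genes of the camalexin branch, which draws on the same indole aldoxime as CYP83B1, were higher in the line than in wild type in both conditions, while 0 of 3 were called for salt by edgeR in either genotype (0 with an unadjusted p under 0.05). When replicate 1 of the salt-treated line was left out, all 3 were called higher under salt in the line, CYP71A12 with 1.46 ± 0.47 (edgeR adjusted p = 0.014). PAD3, the last enzyme of camalexin synthesis, averaged 37.4 ± 20.1 FPKM in the salt-treated line and 6.32 ± 1.67 FPKM in salt-treated wild type (2.52 ± 0.42, edgeR adjusted p = 0.0031). Untreated it averaged 27.7 ± 3.15 FPKM in the line and 5.21 ± 2.18 FPKM in wild type (2.32 ± 0.42, edgeR adjusted p = 0.0045). CYP71A12 was 3.18 ± 0.67 higher under salt on the log2 scale (edgeR adjusted p = 0.0066), and CYP71A13 2.65 ± 0.63 higher untreated (edgeR adjusted p = 0.017). Untreated, 1 of the 3 calls was left without replicate 1 of the line or replicate 1 of wild type. CYP71A12 and CYP71A13 are closely related genes of chromosome 2, between which reads may be divided. The smallest adjusted p for salt were those of CYP71A12 in the line (1.01 ± 0.59, edgeR adjusted p = 0.15) and PAD3 in wild type (0.49 ± 0.41, edgeR adjusted p = 0.34).

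Of 9 breakdown genes 5 rose and 2 fell under salt in the line, and 4 rose and 2 fell in wild type, where 64.8% of all tested genes were called in the line and 53.8% in wild type. Leaving out replicate 1 of the salt-treated line, 4 fell in the line, and 5, instead of 2, were lower in the untreated line than in untreated wild type. NSP1, a nitrile specifier, rose in the line (3.37 ± 0.18, edgeR adjusted p = 6.6e-08) and in wild type (3.61 ± 0.18, edgeR adjusted p = 4e-08). NSP5 rose in the line (4.41 ± 0.33, edgeR adjusted p = 6.9e-07) and in wild type (1.83 ± 0.30, edgeR adjusted p = 3e-04), was higher there than in wild type under salt (1.95 ± 0.30, edgeR adjusted p = 0.0025) and had an interaction of 2.59 ± 0.41 (edgeR adjusted p = 0.011). PEN2, the atypical myrosinase of the indolic branch, fell in the line (-1.46 ± 0.14, edgeR adjusted p = 5.7e-06) and in wild type (-1.43 ± 0.14, edgeR adjusted p = 8.6e-06). TGG1, the myrosinase of guard and myrosin cells, was lower in the line than in wild type under salt (-2.65 ± 0.85, edgeR adjusted p = 0.033) and untreated (-2.82 ± 0.85, edgeR adjusted p = 0.048), while FAMA, the other marker of those cells, differed by -0.14 (edgeR adjusted p = 0.41) and -0.05 (edgeR adjusted p = 0.83). ESM1 was lower in the untreated line (-1.68 ± 0.49, edgeR adjusted p = 0.041), and BGLU30 higher under salt (6.14 ± 1.31, edgeR adjusted p = 0.0069) although its libraries overlapped. GSTF11 and MYC2, overlapped over 100% and 98.5% of their length by a gene on the other strand, held at most 0 and 1 counts in a library, and nothing is read from them. AOP2 was not analysed here.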

How the data were processed

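RNA sequencing libraries from 12 samples were compared in 4 groups of 3. Per the labels' protocols, a sequencing company prepared RNA with TRIzol or RNeasy reagents and made Illumina libraries. HISAT2 2.0.1, cutadapt 1.9.1, bcl2fastq 2.17.1.14 and the build TAIR10 are listed in the processing notes of the submitters. Which program counted reads, and how it used strand and reads matching several genes, is not given in the sources used here. The authors deposited raw counts per gene and FPKM values, and a recalculation of the FPKM from the counts and the exon lengths in the table matched within 0.005.

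Tests covered 17038 genes whose FPKM averaged 1 or more over the 12 libraries, run with edgeR 4.0.16 (R 4.3.3) by its quasi-likelihood test, with TMM factors and 1 mean per group, and p-values were adjusted over all of them by the Benjamini-Hochberg method. Each standard error is the log2 fold change divided by the root of F. Alternatives were other scalings and filters, DESeq2 1.42.0, limma 3.58.1 on log2(FPKM + 1) and log2(FPKM + 0.1), a replicate block, fits of only the groups compared, and leaving out each library. Library totals (17173618 to 21651124 counts) limit precision for low genes such as MYB122. A lower bound of a fold takes 3 counts over a group at 0 and covers counting error only.

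The 10 genes and the lists of other pathway and marker genes were chosen with earlier results of these data known, so list counts and medians are descriptions. Overlap of libraries was looked at only for listed genes, and the share of all tested genes without overlap was not computed. Named genes were the 10 in every comparison and, from each pathway list and comparison of salt or genotype, up to 2 called genes with the smallest adjusted p, or the gene with the smallest where none was called. For CYP83A1 and CYP83B1 the 5 tested genes most like each were also named. Other genes named for the interaction, TGG1 under salt, FAMA, GSTF11 and MYC2 were chosen after their values were seen. Sequences come from RefSeq TAIR10.1, in which 32531 of 32547 nuclear loci, and all 10 genes, have the same start and end as in the table.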

Additional observations from a re-analysis of the deposited data

Results flagged for a closer look

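The salt response differed between the line and wild type, by the interaction test, for CYP79B3 and CYP83B1. For CYP79B3 the log2 response in the line less the one in wild type was -1.59 (SE 0.38, edgeR adjusted p = 0.036). The same difference for CYP83B1 was -0.79 (SE 0.20, edgeR adjusted p = 0.044). Over 20 alternative analyses the values ran from -2.08 to -1.36 for CYP79B3 and from -0.89 to -0.71 for CYP83B1, below 0 in each. The calls were lost in 11 of these 20 analyses for CYP79B3 and in 14 for CYP83B1, with adjusted p up to 0.092 and 0.12 (edgeR, with 1 library left out in each case).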

How the results depend on the processing

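Of 50 results for the 10 genes (each gene in each comparison), 21 were called, and 0 of these changed direction in any alternative. Values of 16 of 1035 alternative results reversed, all of results not called in the first place. For MYB34 under salt in the line they were -0.22 (library totals), -0.032 (mean FPKM of at least 5), -0.26 and -0.29 (limma with pseudocounts 1 and 0.1), -0.47 (salt-treated line less replicate 1) and -0.13 (untreated line less replicate 1). For MYB29 there the value was 0.054 (salt-treated line less replicate 2), and for CYP79B2 0.044, 0.087 and 0.02 (without replicates 2 or 3 of the salt-treated or 1 of the untreated line). Between genotypes under salt, MYB122 gave 0.072 and CYP79B2 -0.17 without replicate 1 of the salt-treated line, and CYP83B1 0.032 without replicate 1 of salt-treated wild type. Untreated, MYB34 gave 0.085 and 0.11 without replicate 1 of the line or 3 of wild type. The interactions of MYB51 (0.066, without replicate 3 of untreated wild type) and CYP71A12 (-0.42, without replicate 2) also reversed. Over the libraries left out, these results ran from -0.47 to 0.30 for MYB34, -1.23 to 0.054 for MYB29 and -0.39 to 0.087 for CYP79B2 (salt in the line), -0.52 to 0.072 for MYB122, -0.17 to 0.33 for CYP79B2 and -0.10 to 0.032 for CYP83B1 (genotypes under salt), -0.27 to 0.11 for MYB34 (genotypes untreated), and -0.79 to 0.066 for MYB51 and -0.42 to 0.89 for CYP71A12 (interaction).

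Counts of called genes moved as follows, and the cause was not tested. Under salt in the line, indolic genes called higher were 0 with a mean FPKM of at least 5, which leaves MYB122 untested. In wild type, indolic genes called higher were 1 with library totals or that filter, and those called lower were 2 with library totals, that filter, DESeq2, either limma fit, or only the groups compared. Aliphatic genes called higher there were 1 with DESeq2 or only the groups compared. Between genotypes under salt, 1 indolic gene was called higher with DESeq2, the replicate block or only the groups compared, 1 lower with the replicate block, and with only the groups compared 0 aliphatic and 0 indolic genes lower, with 2000 genes called in all against 5888. Untreated, 4 indolic genes were called higher with library totals or DESeq2, and only the groups compared gave 2 aliphatic genes higher and 3992 genes in all against 2371. For the interaction, 1 indolic gene was called lower with median-of-ratios scaling, no filter or the replicate block. Aliphatic genes called lower were 1 with DESeq2, 2 with limma at pseudocount 1 and 1 at 0.1. In all, 2531 genes were called with DESeq2, 1569 with limma at pseudocount 1 and 644 with the replicate block, against 1001.

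Leaving out each library in turn gave 0 to 1 aliphatic genes higher and 1 to 3 lower under salt in wild type. Between genotypes under salt it gave 0 to 1 indolic genes higher, 0 to 4 aliphatic and 0 to 2 indolic genes lower, and 2649 to 9185 genes in all. Untreated it gave 0 to 2 aliphatic and 1 to 5 indolic genes higher and 1160 to 5121 in all. For the interaction it gave 0 to 4 aliphatic and 0 to 5 indolic genes lower and 129 to 6270 in all. The highest of these came without replicate 1 of the salt-treated line.

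Scaling to library totals moved the median log2 fold change of all tested genes to -0.31 in the line and -0.22 in wild type under salt, against -0.05 and -0.02, and the share of higher calls to 34.9% and 36.8%, against 48.4% and 50.4%. For the genotypes untreated that share was 66.4% against 52.7%, and for the interaction 32.8% against 49.8%. No common pairing by replicate number was seen: of 18 same-numbered pairs 4 had correlated deviations over 0.1 (range -0.26 to 0.24). With 3 libraries per group this check cannot exclude a pairing or a batch. With the replicate block, the MYB34 calls in salt-treated against untreated wild type and between genotypes under salt were lost (edgeR adjusted p = 0.054 and 0.061), as was the CYP83B1 interaction (edgeR adjusted p = 0.072), and MYB51 was called higher in the line in both conditions (edgeR adjusted p = 0.04 and 0.025). It changed no other call of the 10 genes. For the branch ratios the alternatives are not a check of robustness. Scaling of a library cancels in a ratio within it, and leaving out 1 of 3 libraries cannot move a mean by 1 SD. The widest shift, for CYP83A1 to CYP83B1 in the salt-treated line, ran from -3.65 to -2.76 on the log2 scale over the libraries left out.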
